A study of Danio rerio with 4 samples.

Results

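Of the 32434 genes counted in sorted kidney marrow progenitors of adult zebrafish, 26 had reads in both libraries of one tet2 genotype and almost none in the other. The genes were chosen from the raw counts. A gene silent in one genotype had at most 3 reads summed over the 2 libraries of that genotype, and at least 10 reads in each library and 30 in sum in the other genotype. By this rule 17 genes were silent in the tet2 mutants and 9 were silent in wild type. Among the 11692 genes with enough reads in wild type to qualify, the 17 made up 0.145%, and among the 11874 genes with enough reads in the mutants, the 9 made up 0.0758%. Because the counts themselves chose the genes, the difference between genotypes in each of them is given as a description, with no test.

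Polyadenylated RNA was sequenced as single-end reads from 2 libraries of homozygous tet2 mutants and 2 libraries of wild-type fish. Tet2 is a DNA dioxygenase that starts the removal of cytosine methylation, and a deletion made with zinc finger nucleases disrupts it in the mutant line. The cells were sorted from the kidney, the site of blood formation in adult fish, by forward and side scatter. On age the labels conflict, with 4 months in the titles and 15 months in the descriptions of the same samples, and the study's own account has the younger age. Neither the labels nor the methods used here say whether the mutant and wild-type fish were siblings. The study speaks of pools of biological replicates for its methylation data, made from the same sorted cells, but how many fish went into an RNA library is not stated there or in the labels, so p-values measure the spread between these libraries, which may be technical. With each genotype represented in this way, the tet2 lesion and any other inherited difference between the fish cannot be told apart.

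Laboratory zebrafish are not inbred in the way of common mouse strains, and fish of one stock carry many sequence variants and differences in the number of gene copies. Many zebrafish genes also have a duplicate, often marked by a or b at the end of the symbol. Such duplicates remain from a genome duplication in the ancestors of teleosts, the group of bony fishes that includes zebrafish. A transcript can be missing from a count table because the gene is off, because the cells that express it are missing from the sample, because the gene is not in that animal's genome, or because its reads match another copy or no copy of the reference. In bulk RNA, fewer cells of a type and less RNA per cell cannot be told apart.

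Total counts were 9252853 and 10710913 in mutant replicates 1 and 2, and 9200225 and 8838603 in wild-type replicates 1 and 2. Levels are read counts brought to a common library size (CPM) with the TMM method, a scaling that assumes most genes to be alike between libraries. A count of 0 allows up to 3 reads, which is 0.271 to 0.396 CPM in a single library. Genotypes were compared over 17242 genes with edgeR's quasi-likelihood test, with the replicate number as a block, and a gene was called at a Benjamini-Hochberg adjusted p under 0.05 with more than a 2-fold change. The test called 639 genes (3.71%), of which 311 (1.8%) were higher and 328 (1.9%) lower in the mutants. The gene tet2 itself had 232 and 282 reads in the mutants against 332 and 185 in wild type, or 24.6 ± 1.22 against 29.1 ± 6.66 CPM (SD, n = 2 each). It was not called (log2 fold change -0.23 ± 0.22 SE, adjusted p = 0.683 by edgeR), and a small deletion in the gene would not be visible in this count.

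Among the 17 genes silent in the mutants, 10 had 0 reads in both mutant libraries, 2 had a sum of 2 and 5 had a sum of 3. Their wild-type read sums ranged from 31 to 604, with a median of 52. The mean wild-type level was 1.74 to 34.5 CPM, with a median of 3.1 CPM, and 16 of the 17 lay below the median level of the genes with enough wild-type reads to qualify.

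The gene rfesd, which encodes a protein with a Rieske iron-sulfur domain, had the most reads. It had 0 and 2 reads in mutant replicates 1 and 2, against 356 and 248 reads in wild type, where it averaged 34.5 ± 2.51 CPM (SD, n = 2). It was the member with the highest level, at the 69.8th percentile of the genes with enough wild-type reads, and both wild-type libraries were near each other. The TMM-scaled read sum was 362-fold higher in wild type, with a 95% Clopper-Pearson interval of 99.8 to 3000 that covers counting error only, as do all such intervals here.

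Next came a pair of genes known by the clone on which they were annotated. si:dkey-266f7.5 had 0 and 0 reads in the mutants against 80 and 75 in wild type, at least 61.9-fold lower in the mutants if a sum of 0 is read as up to 3 reads. Every such bound here takes the reads of the other genotype as exact, so it cannot be set beside the lower ends of the intervals. si:dkey-222h21.6 had 0 and 0 reads in the mutants against 72 and 35 in wild type, at least 42.8-fold lower. Both genes had reads in every wild-type library, as the rule requires, and in no mutant library.

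Several named genes of the group are better known from tissues other than blood. actn2 (current symbol actn2b), an alpha-actinin of the muscle Z-disc, had 0 and 3 reads in the mutants against 66 and 35 in wild type, and its read sum was 40.4-fold higher in wild type (13.4 to 199). plp1b, related to the proteolipid protein of myelin, had 0 and 2 reads in the mutants against 31 and 16 in wild type (28.2-fold higher in wild type, 7.38 to 239). tph1b encodes a tryptophan hydroxylase, the rate-limiting enzyme of serotonin synthesis, and had 0 and 0 reads in the mutants against 24 and 17 in wild type, at least 16.4-fold lower in the mutants. These 3 genes had wild-type levels of 5.67 ± 1.49, 2.63 ± 0.74 and 2.34 ± 0.143 CPM (SD, n = 2).

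Of the other named genes, slc7a9, an amino acid transporter subunit of the mammalian kidney tubule, had 3 and 0 reads in the mutants against 21 and 16 in wild type. TENM1, a teneurin cell adhesion receptor, had 2 and 1 reads in the mutants against 20 and 14 in wild type. gpr98 (current symbol ADGRV1), a very large adhesion receptor of hair cells and photoreceptors, had 3 and 0 reads in the mutants against 17 and 14 in wild type. These 3 genes lay just inside the limit of 3 reads, and their read sums were 14.8-fold (4.68 to 75), 13.6-fold (4.27 to 69.1) and 12.4-fold (3.86 to 63.3) higher in wild type.

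thbs4a, a thrombospondin of the extracellular matrix, had 0 and 0 reads in the mutants against 20 and 11 in wild type, at least 12.4-fold lower in the mutants. efcab11, an EF-hand protein, had 0 and 0 reads in the mutants against 25 and 18 in wild type, at least 17.2-fold lower. The ferritin heavy chain-like gene zgc:194125 (fthl29) had 2 and 1 reads in the mutants against 48 and 10 in wild type, 23.2-fold higher in wild type (7.55 to 116). The 2 wild-type libraries of zgc:194125 differed 3.71-fold in CPM.

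Wild-type replicates also disagreed in 4 further genes of this direction. USO1 (2 of 2), a numbered copy of the gene for a vesicle tethering protein of the Golgi, had 0 and 0 reads in the mutants against 53 and 17 in wild type. zgc:173585 had 0 and 0 reads in the mutants against 17 and 45 in wild type. CR450842.1 had 0 and 0 reads in the mutants against 10 and 49 in wild type, and CR933791.2 had 0 and 0 against 10 and 42. The larger over the smaller wild-type CPM was 2.41, 3.43, 6.35 and 5.44 in these 4 genes, so wild-type replicate 1 was the higher in the first and wild-type replicate 2 in the other three. The last member, CABZ01021532.2, had 0 and 0 reads in the mutants against 24 and 18 in wild type, a ratio of 1.03 in CPM. Their read sums were at least 28.0-fold, 24.8-fold, 23.6-fold, 20.8-fold and 16.8-fold lower in the mutants, in the order in which the 5 genes were named.

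**Figure D1:**
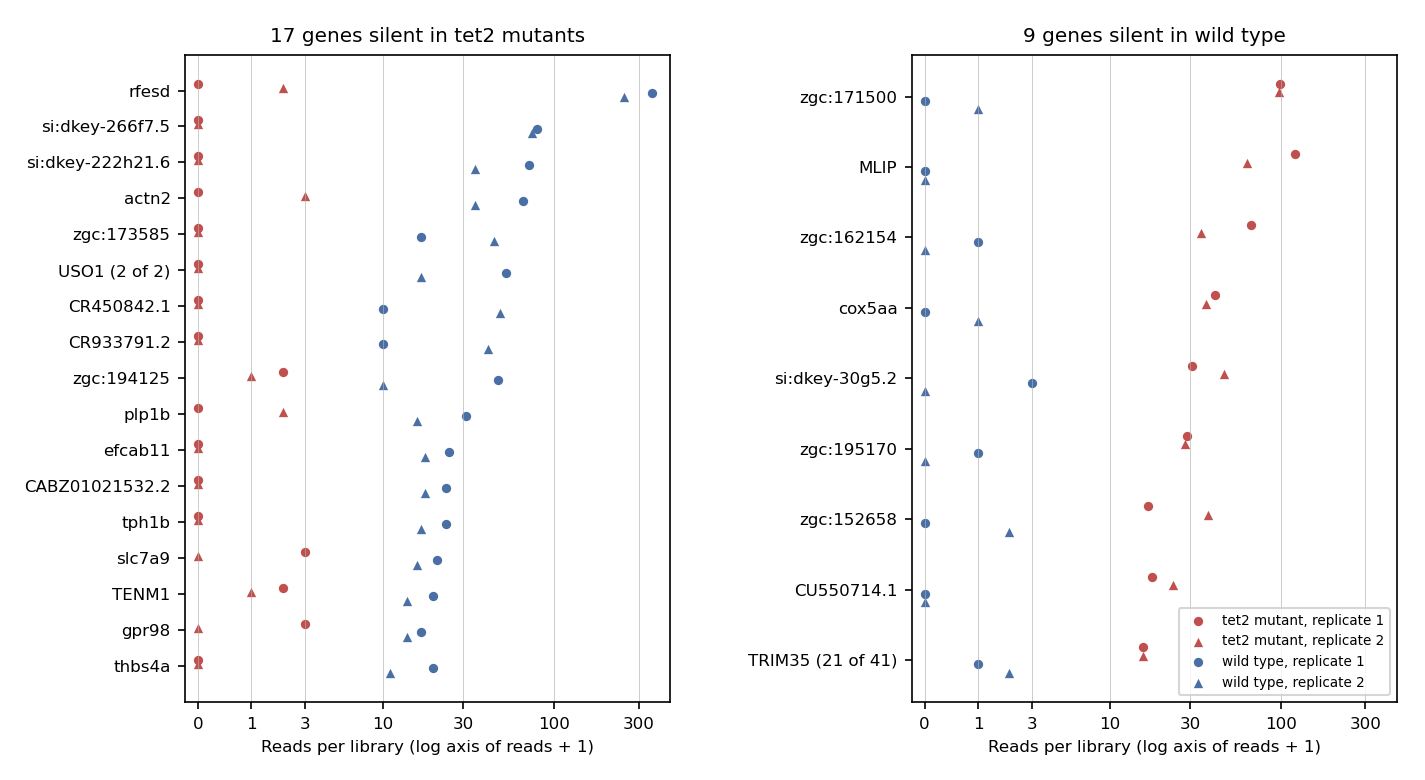
Reads per library of the 17 genes silent in tet2 mutants (left) and the 9 genes silent in wild type (right), on a log axis of reads + 1; red symbols are tet2 mutants and blue symbols wild type, circles replicate 1 and triangles replicate 2. The silent genotype lies at 0 to 3 reads throughout, as the rule requires, and rfesd has the most reads in the other genotype, with 356 and 248 in wild type.

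The 9 genes silent in wild type included 2 with a wild-type sum of 0, 4 with a sum of 1, 1 with a sum of 2 and 2 with a sum of 3. Their mutant read sums ranged from 32 to 195 with a median of 78, and their mean mutant level was 1.54 to 9.39 CPM. All 9 were below the median level of the genes with enough mutant reads to qualify, and none approached rfesd in level.

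zgc:171500 had the most reads, with 98 and 97 in the mutants against 0 and 1 in wild type, a read sum 163-fold higher in the mutants (28.9 to 6460). MLIP, whose mammalian counterpart encodes a protein that binds lamin A/C in muscle, had 120 and 64 reads in the mutants against 0 and 0 in wild type, at least 51.2-fold higher. zgc:162154 had 67 and 35 reads in the mutants against 1 and 0 in wild type (85.1-fold, 14.9 to 3390). The 3 genes averaged 9.39 ± 0.896, 9.03 ± 4.59 and 5.01 ± 2.61 CPM in the mutants (SD, n = 2), and mutant replicate 1 was more than 2-fold above mutant replicate 2 in MLIP and zgc:162154.

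cox5aa, one of the zebrafish genes for subunit Va of cytochrome c oxidase, the last complex of the respiratory chain, had 42 and 37 reads in the mutants against 0 and 1 in wild type (65.9-fold higher in the mutants, 11.5 to 2640). si:dkey-30g5.2 had 31 and 47 reads in the mutants against 3 and 0 in wild type (21.7-fold, 7.15 to 107). zgc:195170 had 29 and 28 reads in the mutants against 1 and 0 in wild type (47.5-fold, 8.2 to 1910). Mutant replicates of these 3 genes were within 1.34-fold of each other in CPM.

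zgc:152658 had 17 and 38 reads in the mutants against 0 and 2 in wild type (22.9-fold, 6.06 to 194). CU550714.1 had 18 and 24 reads in the mutants against 0 and 0 in wild type, at least 11.7-fold higher. TRIM35 (21 of 41), one of a large set of tripartite motif genes numbered as copies, had 16 and 16 reads in the mutants against 1 and 2 in wild type (8.9-fold, 2.78 to 45.4). It lay nearest to the limits of the rule.

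The limits cut through a continuous range. On the mutant-silent side, gpr98, TENM1 and slc7a9 were inside the low limit with 3 mutant reads, and BX005223.3 was outside it with 1 and 3 reads in the mutants against 273 and 142 in wild type, as were wu:fc51f04 (2 and 2 against 16 and 20) and glg1b (3 and 2 against 21 and 22). gpr98, thbs4a and TENM1 had the smallest wild-type sums inside, 31, 31 and 34. At the limit of 10 reads per library, CR933791.2, zgc:194125 and CR450842.1 were inside with 10 reads in one wild-type library, while matn4 (1 and 1 in the mutants against 51 and 9 in wild type), camkvl (1 and 2 against 50 and 9) and BX927369.6 (0 and 1 against 9 and 22) were outside. The largest wild-type sum outside this limit was that of MFAP4 (3 of 13), with 1 and 0 mutant reads against 176 and 2 in wild type, nearly all from a single library.

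On the wild-type-silent side, TRIM35 (21 of 41), si:dkey-30g5.2 and zgc:152658 were inside the low limit, and C4A was outside it with 12 and 54 reads in the mutants against 3 and 1 in wild type, as were SH2D1B (14 and 44 against 2 and 2) and dytn (15 and 38 against 3 and 1). TRIM35 (21 of 41), CU550714.1 and zgc:152658 had the smallest mutant sums inside, 32, 42 and 55, and also the fewest reads in one mutant library, 16, 18 and 17. Outside the limit of 10 reads per library were megf11 (24 and 8 in the mutants against 1 and 2 in wild type), BX005421.5 (7 and 38 against 1 and 0) and CABZ01061495.1 (24 and 7 against 1 and 0), and the largest sum outside it was that of stc1l, with 119 and 2 mutant reads against 0 and 0 in wild type. A sum of 4 to 6 reads in the silent genotype was found in 8 genes on the mutant-silent side and 21 on the wild-type-silent side. A further 11 and 10 genes met the limit on the sum in both genotypes but had fewer than 10 reads in one library.

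The number of members depended on single libraries, since a rule over fewer libraries admits other genes. Without mutant replicate 2 the mutant-silent count was 26, of which 13 were among the 17, and without wild-type replicate 2 it was 40, of which 15 were among the 17. The wild-type-silent count was 26 when mutant replicate 1 was left out, 26 for wild-type replicate 1 and 24 for mutant replicate 2, with 9, 7 and 9 of the 9 members among them. By edgeR, 17 of the 17 mutant-silent genes (1.9% of all tested genes were called lower) and 8 of the 9 wild-type-silent genes (1.8% were called higher) were called, all but TRIM35 (21 of 41). Without the block 14 and 7 were called and by DESeq2 with the block 5 and 4, and since the same contrast chose the genes nothing is read from these calls.

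Agreement between the libraries of the genotype with reads was not fixed to this degree by the rule. The larger over the smaller CPM had a median of 1.4 in the 17 mutant-silent genes and 1.29 in the 9 wild-type-silent genes, and it was above 2 in 5 and 2 of them. Over all genes that met the read minimum, the median was 1.21 in either genotype, and the ratio was above 2 in 6.16% of genes in the mutants and 4.94% in wild type. Most of those genes had higher levels than the members, so the ratios are not set side by side at like counts. Why the replicates of some members disagreed, and the part of counting error in it, was not tested.

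**Figure D2:**
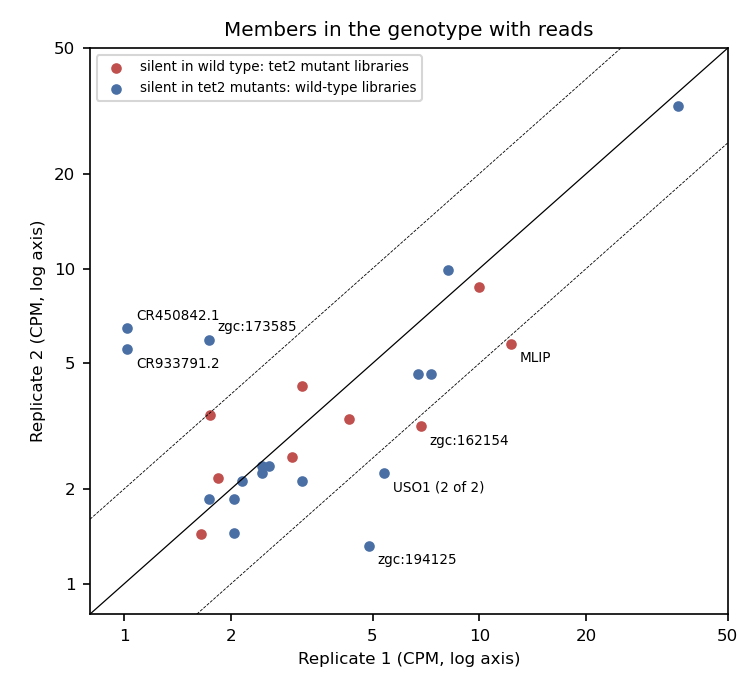
CPM in replicate 1 against replicate 2 in the genotype that had reads, on log axes, for the 9 genes silent in wild type (red, mutant libraries) and the 17 genes silent in mutants (blue, wild-type libraries). The solid line marks equal CPM and the dashed lines a 2-fold difference; the 7 named genes lie beyond 2-fold, with CR450842.1 the farthest at 6.35.

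If a stretch of the genome differed between the fish, genes next to a member could differ as well, and these genes were not used by the rule. Neighbours can also differ without such a stretch, and why any of them differed was not tested. Gene order was taken from the RefSeq annotation of the GRCz12tu assembly, which is not the Zv9 build of the counts, so only order is used and no position is given. It placed 18 of the 26 members, 13 silent in mutants and 5 silent in wild type. USO1 (2 of 2), CR450842.1, CR933791.2, CABZ01021532.2, si:dkey-30g5.2, zgc:195170, CU550714.1 and TRIM35 (21 of 41) had no place.

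Of the 72 tested genes that lay nearest, 2 on each side of each member, edgeR called 7 (9.72%), against 3.71% of all tested genes and 3.53% of the 13837 tested genes with a place. Beside genes silent in mutants 6 of 52 (11.5%) were called, all lower in the mutants, and beside genes silent in wild type 1 of 20 (5.0%) was called, higher in the mutants. The 7 genes lay beside 4 members only, efcab11, si:dkey-266f7.5, si:dkey-222h21.6 and zgc:171500. The 4 called genes beside the first, second and last of these were also called by edgeR without the block and by DESeq2, fits that together called 1.1% of all tested genes. With 5 genes on each side, 13 of 180 (7.22%) were called.

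Beside efcab11 lay tdp1, which encodes a DNA repair enzyme that removes tyrosine-linked adducts from DNA ends. It had 6 and 5 reads in the mutants against 103 and 39 in wild type, or 0.533 ± 0.115 against 7.82 ± 3.78 CPM (SD, n = 2 each), which edgeR called (log2 fold change -3.80 ± 0.46 SE, adjusted p = 7.89e-07). Thus a pair of adjoining genes was low in the mutants, one with 0 reads and one with a few. The call of tdp1 held in 10 of 10 fits, which were the edgeR fit, 5 alternatives and 4 fits each without one library and without the block.

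Near si:dkey-266f7.5 lay a cluster of nuggc genes, named for a nuclear GTPase of the germinal centre in mammals. NUGGC (4 of 4) had 13 and 23 reads in the mutants against 134 and 122 in wild type (log2 fold change -3.13 ± 0.33 SE, edgeR adjusted p = 5.19e-08), and NUGGC (1 of 4) had 14 and 17 against 96 and 85 (-2.81 ± 0.36, adjusted p = 1.73e-06). Both were called in 10 of 10 fits. NUGGC (3 of 4), next in order, had 26 and 29 reads in the mutants against 62 and 35 in wild type and was not called (edgeR adjusted p = 0.114), nor was NUGGC (2 of 4), a copy that was not among the 5 nearest on either side (11 and 9 against 33 and 22, adjusted p = 0.0656). Of the 3 other genes annotated on clone dkey-266f7, 2 had reads only in wild type (0 and 0 in the mutants against 2 and 2, and 0 and 0 against 0 and 5) and 1 had none. These counts are too small for anything to be read from them. On the other side, among the 5 nearest, s100a10a, a calcium-binding protein gene, had 69 and 50 reads in the mutants against 484 and 507 in wild type (-3.33 ± 0.25, edgeR adjusted p = 4.94e-11, called in 10 of 10 fits). Between them lay dpm3, which was not called, with 157 and 214 reads in the mutants against 119 and 89 in wild type.

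Around si:dkey-222h21.6 a run of genes had few or no reads in the mutants. ggt1l2.2, a gamma-glutamyltransferase-like gene, had 0 and 0 reads in the mutants against 10 and 8 in wild type (edgeR adjusted p = 0.0348), and si:dkey-222h21.5 had 0 and 0 against 8 and 10 (adjusted p = 0.0337). These calls held in 3 of 9 and 5 of 9 fits. caspbl, a caspase-like gene, had 0 and 0 reads in the mutants against 14 and 11 in wild type (adjusted p = 0.0104, called in 9 of 10 fits) and missed the member rule only on its sum.

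The mutant libraries differed from each other in this run. si:dkey-222h21.9 had 0 and 27 reads in the mutants against 66 and 38 in wild type. It was called lower (log2 fold change -2.50 ± 0.60 SE, edgeR adjusted p = 0.00822), and the call held in 6 of 10 fits. With every library kept, dropping the block raised its edgeR adjusted p to 0.241, and DESeq2 with the block gave 0.777. With the block dropped and mutant replicate 1 left out, its log2 fold change was -1.27. With wild-type replicate 1 left out instead, its log2 fold change was -2.03. si:dkey-222h21.1 had 0 and 8 reads in the mutants against 31 and 13 in wild type. Of the 11 other genes on clone dkey-222h21, 4 had no reads, 3 had reads only in wild type, 4 had reads in both genotypes and 0 had reads only in the mutants. Those with reads only in wild type had few. Besides si:dkey-222h21.5 they were si:dkey-222h21.4 (3 and 9 in wild type) and si:dkey-222h21.8 (1 and 0). The share of all genes with reads in a single genotype was not taken, so nothing is read from this number. Over these 11 genes mutant replicate 1 had 1 read, in si:dkey-222h21.10, while mutant replicate 2 had reads in 4 of them.

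On the wild-type-silent side, zgc:171497 lay beside zgc:171500 and had 553 and 516 reads in the mutants against 175 and 91 in wild type (log2 fold change 1.80 ± 0.22 SE, edgeR adjusted p = 5.94e-07, called in 10 of 10 fits). Among the 5 nearest on the same side, si:dkey-19a16.7 had 194 and 138 reads in the mutants against 10 and 1 in wild type (4.78 ± 0.41, adjusted p = 8.91e-10, 10 of 10 fits). si:ch211-209l18.4, in between, had 45 and 14 against 8 and 2 (adjusted p = 0.0244, 5 of 10 fits). The genes in the same stretch were not all higher in the mutants, since zgc:171490 and fgfr1bl had fewer reads in both mutant libraries than in either wild-type library and were not called. Beside zgc:152658, zgc:194443 had 7 and 9 reads in the mutants against 0 and 0 in wild type (adjusted p = 0.0904).

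**Figure D3:**
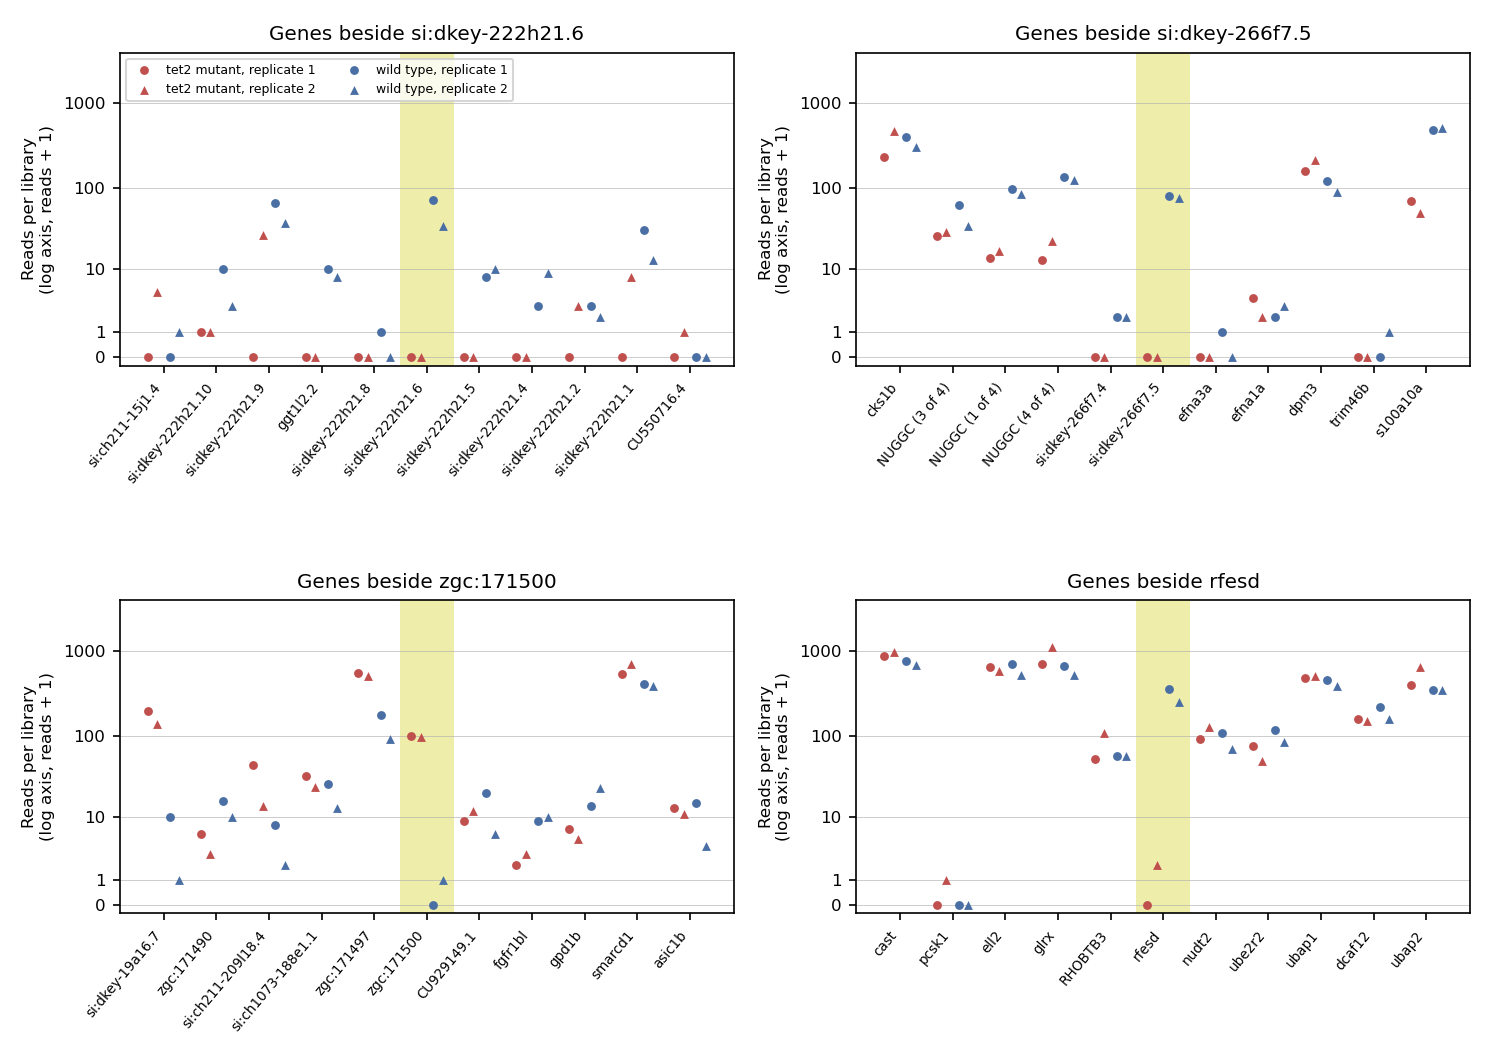
Reads per library, on a log axis of reads + 1, for a member (yellow band) and the 5 genes with reads on each side of it in the gene order of GRCz12tu; red is tet2 mutant and blue wild type, circles replicate 1 and triangles replicate 2. Low mutant counts run over several genes beside si:dkey-222h21.6 and si:dkey-266f7.5, whereas the genes beside rfesd, pcsk1 apart, have many reads in every library.

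Of the 5 genes with reads on each side of rfesd, all but pcsk1 had reads in all libraries, such as RHOBTB3 with 53 and 107 reads in the mutants against 57 and 57 in wild type and nudt2 with 91 and 127 against 107 and 69. No gene within 5 places of rfesd was called. Near actn2, bnip4 had 4 and 8 reads in the mutants against 94 and 55 in wild type (log2 fold change -3.84 ± 0.45 SE, edgeR adjusted p = 4.82e-07, 10 of 10 fits), with 3 tested genes between them. Near thbs4a, SETBP1 had 44 and 20 reads in the mutants against 183 and 50 in wild type (-1.97 ± 0.31, edgeR adjusted p = 6.72e-05). The call was not kept by edgeR when the block was left out (adjusted p = 0.0764). The log2 fold change of SETBP1 was -1.09 when wild-type replicate 1 was left out as well.

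The surroundings of tet2 bear on variation inherited together with the mutation, since selection for the mutant allele carries its neighbours along. Among the 25 tested genes on each side of tet2, 2 of 50 (4.0%) were called and 0 were members, and among 50 on each side 4 of 100 (4.0%) were called. On the whole chromosome of tet2, 47 of 659 tested genes (7.13%) were called, 24 of them higher in the mutants and 23 lower, against 3.53% of all tested genes with a place. That chromosome held 2 of the 18 placed members, zgc:152658 with 108 tested genes between it and tet2, and si:dkey-222h21.6 with 375. The share of calls was thus near the share over all genes beside tet2 and above it over its chromosome, a difference that was not tested.

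**Figure D4:**
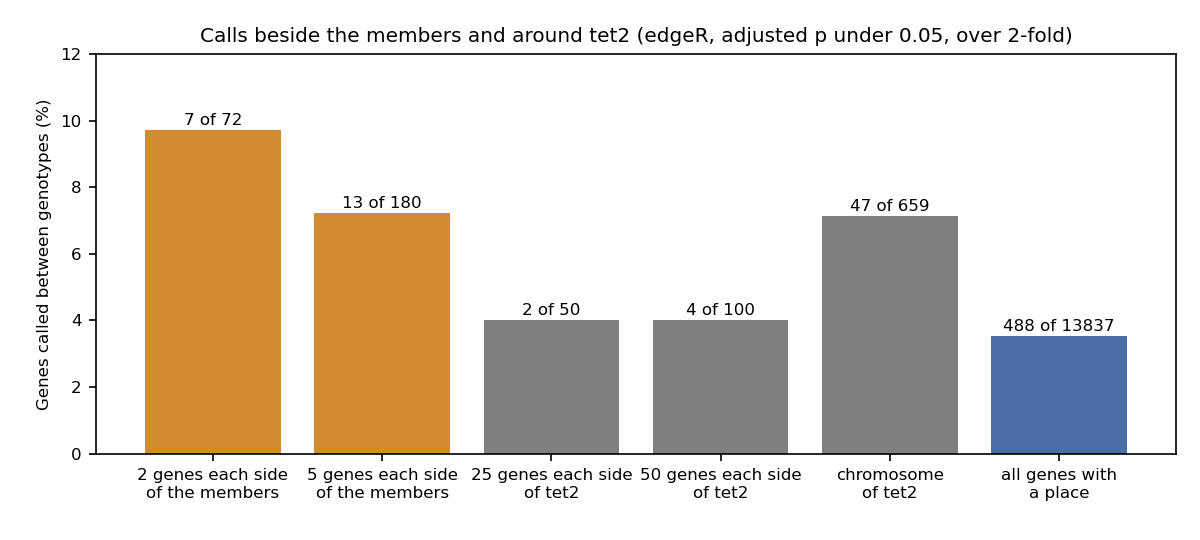
Percent of tested genes called between genotypes by edgeR, with called and tested numbers above each bar: genes beside the 18 placed members (orange), genes around tet2 and on its chromosome (grey), and all tested genes with a place in GRCz12tu (blue). The bars beside members reach 9.72% and 7.22%, those beside tet2 4.0%, against 3.53% for all placed genes.

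Reads missing from one copy could be counted in another, and the sources used here do not give the treatment of reads that match several places, so members with near-identical copies are uncertain. Copies were looked up by symbol and were chosen after the values had been seen. USO1 (2 of 2) had 0 and 0 reads in the mutants against 53 and 17 in wild type, while uso1 had 149 and 137 reads in the mutants against 43 and 77 in wild type (log2 fold change 1.01 ± 0.30 SE, adjusted p = 0.0426 by edgeR). The call of uso1 held in 2 of 10 fits, and its adjusted p was 0.261 by edgeR without the block. When wild-type replicate 1 was left out as well, its log2 fold change was 0.42. Summed over both genes the level was 15.2 and 12.4 CPM in the mutants against 9.78 and 12.4 CPM in wild type. The sums thus only met at 12.4 CPM, with 2 libraries of each genotype, and whether reads moved between the copies was not tested. uso1 is also one of the 2 called genes near tet2, with 3 tested genes between them.

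cox5aa is one of 3 genes with its name. cox5ab had 489 and 856 reads in the mutants against 645 and 618 in wild type, and COX5A (2 of 3) had 62 and 196 against 166 and 178, neither called. COX5A (2 of 3) missed only the 2-fold limit (log2 fold change -0.87 ± 0.25 SE, edgeR adjusted p = 0.0344). Its adjusted p was 0.432 by edgeR without the block and 0.459 by DESeq2. The summed level of the 3 genes was 60.7 and 98.3 CPM in the mutants against 82.6 and 105 CPM in wild type, so cox5aa was a small part of it. The ferritin member zgc:194125 likewise belongs to a set of 5, in which zgc:92066 (fthl27) had 2386 and 3258 reads in the mutants against 2229 and 2603 in wild type. The other copies had smaller read sums in the mutants and were not called. They were zgc:198419 (3 and 34 in the mutants against 41 and 13 in wild type), zgc:173593 (2 and 3 against 19 and 2) and zgc:109934 (1 and 4 against 9 and 7). The sum of the 5 was 245 and 298 CPM in the mutants against 239 and 348 CPM in wild type. Nearly all of it came from zgc:92066, with means of 269 and 285 CPM, so the sum does not bear on the smaller copies.

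For rfesd the sum with the copy found by symbol stayed apart between genotypes, and whether its reads were counted elsewhere was not tested. RFESD (2 of 2) had 25 and 27 reads in the mutants against 11 and 19 in wild type (log2 fold change 0.53 ± 0.53 SE, edgeR adjusted p = 0.7), and the pair summed to 2.56 and 2.62 CPM in the mutants against 37.4 and 35.2 CPM in wild type. thbs4b had 1 and 0 reads in the mutants against 13 and 1 in wild type, and plp1a had at most 4 reads in any library, too few to compare. Among the other alpha-actinins, actn1 had 533 and 579 reads in the mutants against 406 and 229 in wild type (adjusted p = 0.0888), and actn3b and ACTN4 were not called.

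Genes with reads that share a clone or a name with si:dkey-30g5.2, or a symbol prefix with its namesake, shared its direction. Of the 3 other genes annotated on clone dkey-30g5, 2 had no reads. BX004816.3, which now carries the name si:dkey-30g5.2 in the list of current symbols, had 81 and 204 reads in the mutants against 14 and 5 in wild type (log2 fold change 3.50 ± 0.41 SE, edgeR adjusted p = 4.2e-07, called in 10 of 10 fits). BX004816.4, which shares the prefix BX004816 with BX004816.3, had 19 and 18 against 3 and 1 (edgeR adjusted p = 0.0505). On the clone itself, si:dkey-30g5.1 had 24 and 32 against 10 and 1 (edgeR adjusted p = 0.0496, called in 3 of 10 fits). The 4 genes summed to 15.9 and 27.2 CPM in the mutants against 3.06 and 0.924 CPM in wild type. Copies of trap1, a mitochondrial chaperone gene beside zgc:162154, went different ways, with 117 and 87 reads of TRAP1 (2 of 2) in the mutants against 36 and 28 in wild type (1.41 ± 0.32, adjusted p = 0.00525, called in 5 of 10 fits and not without the block, at 0.0679) and 4 and 24 reads of trap1 against 29 and 24 (adjusted p = 0.159).

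**Figure D5:**
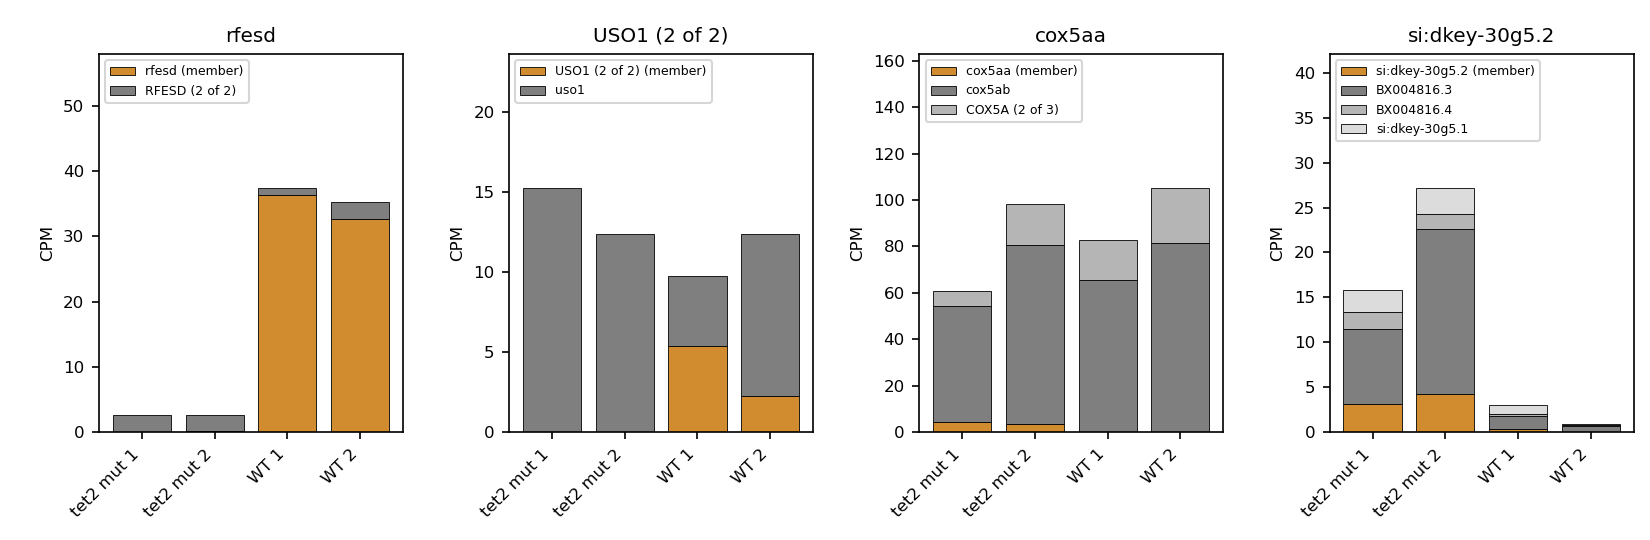
CPM per library of 4 members (orange) stacked on genes linked to them by name, clone or symbol prefix (grey shades), with tet2 mutant libraries left of wild-type libraries (WT). The stacks overlap between genotypes for cox5a and only meet, at 12.4 CPM, for USO1. They stay apart for rfesd (2.56 and 2.62 CPM in mutants against 37.4 and 35.2 in wild type) and for the dkey-30g5 genes.

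Families with many copies, such as immune receptors, NLR-type genes, histones and TRIM genes, were matched by the pattern of the gene symbol. Of 21 such families 1 held a member, TRIM35 (21 of 41) in the TRIM family. Of the 26 members, 13 had a clone or placeholder symbol in the counts, 7 in the mutant-silent and 6 in the wild-type-silent group. These were symbols with the prefix zgc:, si:, CR, CU, CT or CABZ, and zgc:194125 among them is also named fthl29. Among all genes with enough reads, 4.08% in the mutants and 3.93% in wild type belonged to one of the families. A symbol with a prefix from the list above was carried by 11.1% in the mutants and 10.9% in wild type. Symbols of a like kind with other prefixes, such as BX, FP or wu:, were not counted, so these shares are too low for all clone or placeholder names. Such a name matches no family whatever the gene encodes, so the match cannot show how many members have many copies.

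Fragments of other tissues were looked for with lists of marker genes, and 0 of 16 lists contained a member. The 26 members are few beside the 17242 tested genes, so short lists would rarely hold one. The 0 therefore says nothing about other tissues. The skeletal muscle list, set beside actn2 and MLIP, summed to 69.1 and 55.3 CPM in the mutants against 81.1 and 83.1 CPM in wild type. Of its 16 genes 7 had no reads, among them the parvalbumin genes and ckma, and most of the sum came from acta1b with 595 and 519 reads in the mutants against 675 and 525 in wild type. The nervous system list, set beside plp1b, summed to 0.921 and 0.722 CPM in the mutants against 1.94 and 0.792 CPM in wild type, with mbpa and elavl3 at 0 in all 4 libraries. Nervous system markers were thus near 0 in both genotypes. Among the other muscle markers mylz3 had 49 and 52 reads in the mutants against 48 and 53 in wild type, and tnni2a.4, a fast muscle troponin I gene, had 11 and 4 against 53 and 33 (log2 fold change -2.77, edgeR adjusted p = 0.00059), the only called gene of the list. It moved the same way as actn2 and the opposite way to MLIP, and its part in either was not tested.

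The kidney tubule list, set beside slc7a9, summed to 476 and 307 CPM in the mutants against 509 and 405 CPM in wild type, and 0 of its 13 tested genes were called. Most of the sum came from slc20a1a and gstp1. The tubule genes cdh17 (256 and 27 reads in the mutants against 43 and 28 in wild type), atp1a1a.4 (349 and 24 against 82 and 38), slc12a3 (66 and 6 against 28 and 12) and pax2a (22 and 2 against 5 and 0) were highest in mutant replicate 1. So were hnf1ba (28 and 2 against 7 and 2), slc12a1 (19 and 0 against 2 and 1) and podxl (12 and 1 against 2 and 3). The same held for wt1b, pax8, wt1a and cubn. Fewer genes of the list went another way, among them slc4a4a and nphs1l with at most 2 reads in any library. aqp3a (10 and 5 against 22 and 15) and slc20a1a (3076 and 1996 against 3987 and 2273) were highest in wild-type replicate 1. gstp1 (783 and 1314 against 802 and 694) was highest in mutant replicate 2. slc7a9 had 3 reads in mutant replicate 1 and its highest counts in wild type. The germ line list summed to 10.4 and 4.78 CPM in the mutants against 7.23 and 24.0 CPM in wild type, and the liver list to 13.7 and 21.1 against 22.2 and 13.5. No members belong to these lists, and the part of other tissues in the members' counts was not tested.

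Some markers of blood cell types were called between genotypes, beside 3.71% of all tested genes. Of 12 tested B cell markers 9 were called lower in the mutants (sum 315 and 238 CPM in the mutants against 520 and 473 in wild type), and of 12 erythroid markers 3 were called lower (28100 and 21600 against 51300 and 81600). Most of the erythroid sum came from hbaa1, which was not called (edgeR adjusted p = 0.311). The globin gene hbbe2 had 3 and 839 reads in the mutants against 5406 and 6203 in wild type, so a single marker was nearly without reads in mutant replicate 1. Of 24 macrophage markers 3 were called higher and 6 lower (2490 and 3660 against 2700 and 2140). The macrophage list holds 26 genes for 12 matched symbols, since numbered copies were counted one by one. Outside the MFAP4 copies, csf1ra and csf1rb were called lower and mpeg1 was called higher. Of 9 thrombocyte markers 2 were called higher (677 and 648 against 503 and 442), and of 12 neutrophil markers 2 were called higher. The neutrophil sums overlapped between genotypes, with 5280 and 8830 CPM in the mutants against 5320 and 4300 in wild type. Stem and progenitor markers, the labelled cell type, had reads for all 11 genes and 0 called (933 and 600 against 839 and 687). The part of cell composition in the members' counts was not tested. Counts of reads per gene hold neither sequence variants nor copy numbers, so a missing gene, a diverged allele and a gene that is off cannot be told apart here.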

How the data were processed

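RNA was from sorted kidney marrow progenitors of 2 tet2 mutant and 2 wild-type samples. Per the submitters' processing notes and the study's methods, the authors used FastQC 0.10.1, STAR 2.3.0 and bedtools 2.16.1 with the Zv9 annotation, and the deposited values are raw counts of reads per gene. The treatment of strand, overlapping genes and reads with several matches was not stated in the sources used here. The table's 0 columns without a sample needed no exclusion. The 26 members and all lists were chosen with earlier results of these data known. Every member is named, with 3 genes on either side of each limit (those outside with the largest sum are also named), tet2 and called neighbours. Genes with more than 5 reads over 4 libraries were tested with edgeR 4.0.16 in R 4.3.3, with TMM scaling, the replicate number as a block and two-sided p-values. The filter, thresholds and block follow the study, which used DESeq2; DESeq2 1.42.0 was an alternative here, beside other scaling, filters, limits, numbers of neighbours and single libraries left out. The edgeR script was tested on simulated data. All 6 library pairs differed beyond counting error (chi-square per degree of freedom 19.6 to 74.8). Current symbols came from a name list for 20769 genes, and RefSeq order (GRCz12tu) was matched by symbol for 19408. Intervals of ratios were 95% Clopper-Pearson. A planned search for paralogs by protein identity was not run, and copies were matched by symbol instead.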

Additional observations from a re-analysis of the deposited data

How the results depend on the processing

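The rule gave 17 genes silent in mutants and 9 silent in wild type. With a sum of 0 required the counts were 10 and 2, with a sum of up to 6 they were 25 and 30, with limits of 5 per library and 15 in sum 72 and 60, with 20 and 60 they were 4 and 5, and on TMM-scaled counts 21 and 8. Leaving out one library, with the limits on sums scaled to the libraries left, gave 22 to 40 and 13 to 26. The number of genes called between genotypes, 639, was 223 by DESeq2 with the block, 258 without the replicate block and 412 to 940 without one library (412 without wild-type replicate 2), and 566 to 741 with another scaling or filter. The study's design has a batch term for replicates, which the block follows. The labels do not say what a replicate number marks, and deviations of same-numbered libraries had a correlation of 0.0663. The 7 calls beside members were 4 by DESeq2, 4 without the block, 4 by 3 fits together (chosen after seeing the data), 13 with 5 genes on each side, and 5 to 10 without one library. The 2 calls near tet2 were 1 with DESeq2 size factors, 0 by DESeq2 with the block, 1 with a CPM filter, 1 with no filter, 1 without the block, 4 with 50 genes on each side, and 0 to 2 without one library (1 without mutant replicate 1, 0 without wild-type replicate 1). Why the fits differed was not tested. The members have few reads, with median sums of 52 and 78, and those nearest to the limits would leave the rule with 1 more or 1 fewer read.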

Other observations

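BX005223.3 missed the rule by 1 read, with 1 and 3 reads in the mutants against 273 and 142 in wild type, a larger wild-type sum than any mutant-silent member except rfesd. pax5, a B cell transcription factor, lay 47 tested genes from tet2 and had 47 and 27 reads in the mutants against 205 and 124 in wild type (log2 fold change -2.40 ± 0.29 SE, edgeR adjusted p = 5.55e-07). cbsa, a gene for cystathionine beta-synthase with 20 tested genes between it and tet2, had 328 and 422 reads in the mutants against 152 and 135 in wild type (1.11 ± 0.21, edgeR adjusted p = 0.00095), and was not called by all 3 fits.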
